A study of Mus musculus with 77 samples.

Results

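Leukocyte adhesion was followed through 5 mouse genes and their enhancers in the granulocyte lineage: Itgb2, Itgb7, Itgax, Itga2b and Fut7. All enhancers that the deposited table assigns to one of these genes were taken, which gave 41 of its 44002 enhancers and 5 of its 10096 genes. Itgb2 had 24 enhancers, Itgb7 had 7, Itga2b and Fut7 had 4 each, and Itgax had 2. The median gene of the table had 2 enhancers, and 152 genes had more than Itgb2.

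Integrins are receptors made of 1 alpha and 1 beta chain that hold leukocytes to vessel walls, to other cells and to matrix after signals from inside the cell switch them to a binding state. Itgb2 encodes CD18, the beta chain shared by the leukocyte-restricted integrins, among them Mac1 (with the alpha chain of Itgam), LFA-1 (with that of Itgal) and CD11c (with that of Itgax). Itgb7 encodes the beta chain that pairs with alpha 4 or alpha E in gut homing and retention of lymphocytes. Itga2b encodes CD41, the alpha chain of the platelet fibrinogen receptor, which early hematopoietic progenitors also carry. Fut7 encodes a fucosyltransferase that finishes the sugar by which selectins on vessel walls catch rolling leukocytes.

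The cells were sorted from bone marrow of wild type mice as LSK (lineage negative, Sca-1+, Kit, the stem and multipotent progenitors), as preGM (Lin-, Sca-1-, Kit+, CD150-, CD105-), as GMP (Lin-, Sca-1-, Kit+, CD150-, Fc gamma receptor II/III+) and as mature granulocytes (Mac1+, Gr-1+). The last population was preGM from Cebpa knockout (KO) mice. Cebpa encodes CEBPA, a transcription factor of the myeloid lineage. How the deletion was made, the age of the mice and whether animals were pooled are not given in the sources used here. The histone marks were measured in all 5 populations: H3K27ac, found at active enhancers, and H3K4me1, found at enhancers before and during activity. PU.1, the ETS transcription factor encoded by Spi1, was measured in every population but granulocytes, and CEBPA only in preGM of wild type mice.

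The labels list 2 ChIP libraries for each of these 15 groups, but the table holds 1 signal value per enhancer and group. Differences are therefore given as measured, with no error and no test, and whether any of them exceeds the spread between libraries is unknown. Depth per library is unknown too. Log2 ratios were taken after adding a pseudocount of 0.7 for H3K27ac, 2 for H3K4me1 and 0.6 for PU.1, and an enhancer counts as higher or lower past a 2-fold ratio. The enhancers of a gene lie close together, at Itgb2 with a median gap of 764 bases, so they are not independent measurements.

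Cebpa was read first as a check of the KO label. Its expression value was 208 in wild type and 48.3 in KO preGM, a log2 difference of -2.09. Over the stages its value was 75.4 in LSK, 311 in preGM, 241 in GMP and 38.4 in granulocytes. The granulocyte expression column carried the markers of that cell. All 8 measured of 9 listed granulocyte genes were at least 2-fold higher there than in GMP, beside 14.9% of all genes. Their summed value was 43423 in granulocytes and 4396 in GMP, and 1585 in wild type and 399 in KO preGM. By each gene's enhancer with the highest mean H3K27ac, 5 of the 8 were at least 2-fold higher in granulocytes, beside 11.6% of all genes.

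No genome of build mm9 was at hand, so the letters of the enhancers themselves are not shown. Promoters are shown where the window held a motif that was searched, as 250 bases before a RefSeq start (GRCm38.p6) read along the gene's strand. Capitals mark the motifs searched: TTGCGCAA, the palindrome of CEBP factors, and GAGGAA, a core shared by PU.1 and other ETS factors, both strands. Promoters of 4 of the 5 genes were in the RefSeq table, and 3 windows with a match are printed.
Fut7, upstream start (chr2:25422992-25423241, + strand): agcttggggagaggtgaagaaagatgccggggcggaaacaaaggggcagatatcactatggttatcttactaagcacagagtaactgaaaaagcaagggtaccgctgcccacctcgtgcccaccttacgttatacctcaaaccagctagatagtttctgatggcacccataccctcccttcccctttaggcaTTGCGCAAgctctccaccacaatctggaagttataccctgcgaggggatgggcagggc
Fut7, downstream start (chr2:25423444-25423693, + strand): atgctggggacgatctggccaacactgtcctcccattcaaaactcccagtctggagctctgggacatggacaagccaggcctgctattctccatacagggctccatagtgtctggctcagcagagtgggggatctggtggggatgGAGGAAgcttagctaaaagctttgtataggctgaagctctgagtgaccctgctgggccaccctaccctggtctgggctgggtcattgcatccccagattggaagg
Itga2b (chr11:102469884-102470133, - strand): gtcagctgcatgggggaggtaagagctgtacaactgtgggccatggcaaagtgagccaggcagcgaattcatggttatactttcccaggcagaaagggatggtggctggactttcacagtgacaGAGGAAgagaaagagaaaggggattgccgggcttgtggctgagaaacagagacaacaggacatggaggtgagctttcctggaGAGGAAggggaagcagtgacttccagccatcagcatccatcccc

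The upstream Fut7 promoter holds TTGCGCAA 58 to 51 bases before the start, letters found in 54 of 32851 RefSeq promoters (0.164%). The wider form TTNNGCAA, found in 9.56% of promoters, matched the same 8 bases on both strands. The downstream Fut7 start lies 452 bases away, and its window holds GAGGAA 105 to 100 bases before it. The Itga2b window holds GAGGAA at 126 to 121 and at 44 to 39 bases before the start. GAGGAA is common, in 23.3% of promoters, and the longer GAGGAAGT (2.44% of promoters) was in none of the windows of these genes. None of the motifs was in the Itgax or Itgb7 windows. These positions are of another build than the enhancers, so whether a window lies inside one of them cannot be read here.

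The integrin beta chain Itgb2 had most of the enhancers past 2-fold among these genes, the largest number of them at the last step. Its 24 enhancers span 32.8 kb of chromosome 10 (mm9, 76985811 to 77018619), and no enhancer of another gene lies among them. H3K27ac at these enhancers had a median of 0.712 in LSK, 0.638 in preGM, 0.914 in GMP and 3.2 in granulocytes. All 24 were higher in granulocytes than in GMP, as were 25483 of all 44002 enhancers. Log2 ratios at the 24 ran from 0.52 to 1.82 with a median of 1.18, against 0.14 for all enhancers. Of the 24, 16 were at least 2-fold higher and none was lower, beside 14.1% and 6.05% of all enhancers. Of the 10096 genes, 10 others had at least as many such enhancers as Itgb2, and 6 had more. Such a count depends on the number of enhancers of a gene, in which 152 genes exceed Itgb2.

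Enhancer 7 of Itgb2, counted along the chromosome (76999688 to 76999813), had the highest mean H3K27ac of the gene. Its signal was 1.15 in LSK, 1.79 in preGM, 2.53 in GMP and 8.97 in granulocytes, and 1.04 in KO preGM. Enhancer 22 (77013744 to 77014067) came close in granulocytes, with 0.652, 0.887, 1.80 and 8.14 over the same stages and 1.68 in KO preGM. Enhancer 3 (76993039 to 76993075) had 0.788, 0.792, 2.34 and 7.33, and 0.858 in the KO. At each of these 3 enhancers the granulocyte value stood above all the others, with GMP next.

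**Figure D1:**
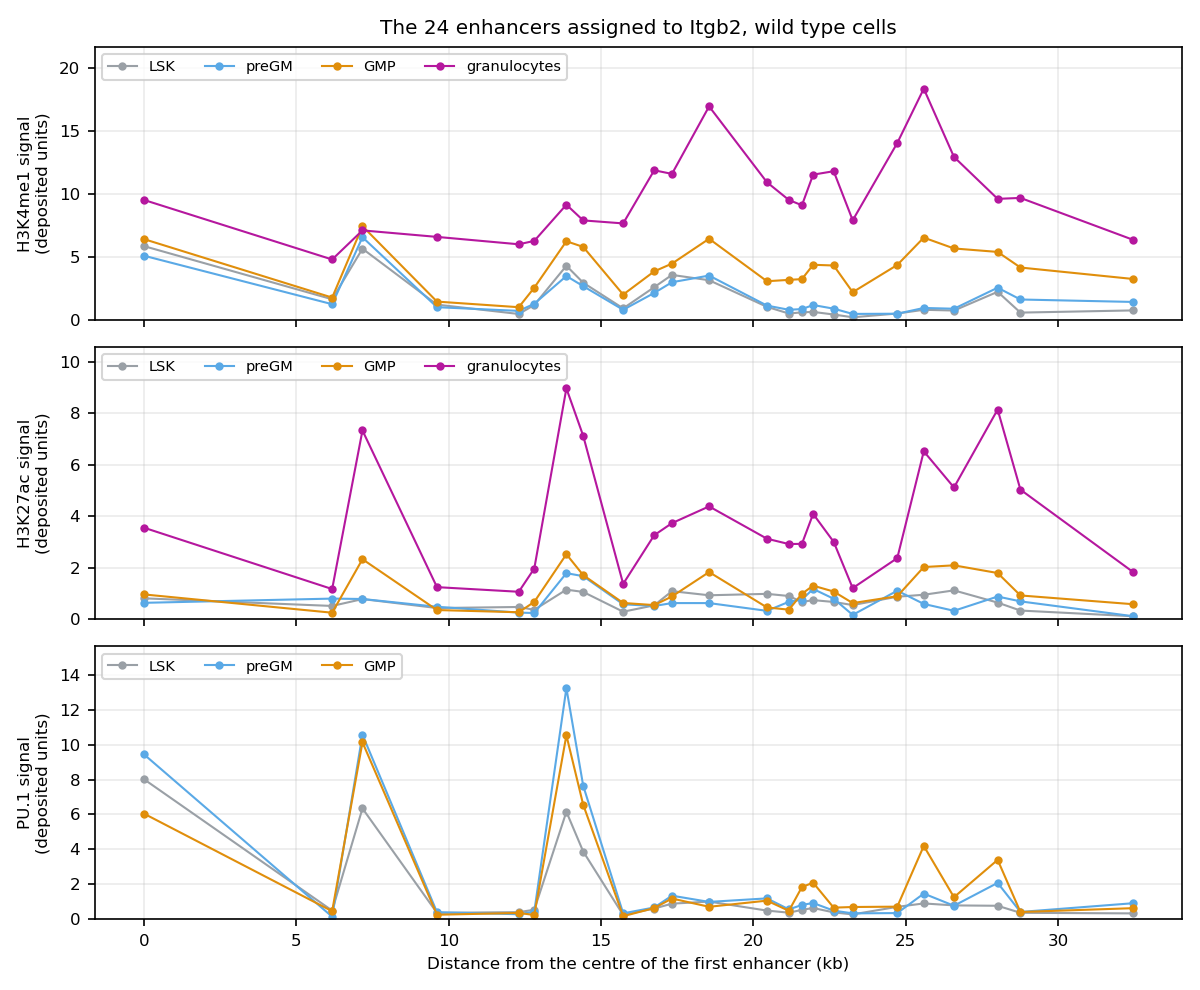
Signals at the 24 Itgb2 enhancers against the distance of each centre from that of the first (kb), in deposited units, with 1 value per enhancer and stage and lines joining neighbours. Granulocyte values stand above GMP at 24 of 24 enhancers for H3K27ac and 23 of 24 for H3K4me1. Of all 44002 enhancers, 25483 and 30017 do. PU.1 signal is high at 4 Itgb2 enhancers within the first 14.5 kb.

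The histone marks did not start from the same place along the locus. Enhancers 1, 3, 7 and 8, the only ones of Itgb2 with a PU.1 signal above 5 in preGM, had H3K4me1 of 2.93 to 5.83 in LSK. Enhancers 11 and 12, with PU.1 of 1.34 and 0.985 in preGM, had LSK values within that range, 3.55 and 3.13. PU.1 signal at enhancers 1, 3, 7 and 8 was 3.87 to 8.01 in LSK and 7.65 to 13.2 in preGM. At these 4 it was 6.04 to 10.5 in GMP and 4.39 to 7.45 in KO preGM. Further along, enhancers 13 to 21 form 9 consecutive sites over 6.39 kb (77006141 to 77012532) with little of either in LSK and preGM. Enhancers 2, 4, 5, 6 and 9 were also low in both, with H3K4me1 of 0.453 to 1.62 in LSK and PU.1 of 0.135 to 0.425 in preGM. The stretch was picked after its values were seen.

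In that stretch H3K4me1 was 0.190 to 1.02 in LSK and 0.458 to 1.16 in preGM, below the all-enhancer medians of 3.26 and 3.07. It was 2.18 to 6.51 in GMP (median of all enhancers 3.79) and 7.89 to 18.3 in granulocytes (5.41). H3K27ac there was 0.377 to 2.10 in GMP and 1.21 to 6.52 in granulocytes. Within the stretch the GMP values of H3K4me1 lay above those of preGM, and those of H3K27ac overlapped the preGM range of 0.174 to 1.18. Because the stretch was picked with its low H3K4me1 in view, the 2 marks cannot be compared from it.

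Enhancer 20 (77011401 to 77011561) was the extreme case. H3K4me1 was 0.786 in LSK, 0.931 in preGM, 6.51 in GMP and 18.3 in granulocytes, and 0.997 in KO preGM. Its log2 ratio of 1.54 from preGM to GMP ranked 3 among the 44002 enhancers. PU.1 signal at this site was 0.897, 1.46 and 4.19 in LSK, preGM and GMP, the one enhancer of the 41 at which PU.1 was at least 2-fold higher in GMP than in preGM (log2 1.22), beside 0.768% of all enhancers. H3K27ac followed with 0.956, 0.600, 2.03 and 6.52 over the 4 stages.

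Of all 44002 enhancers, 37716 had more H3K4me1 in GMP than in preGM. Over the whole of Itgb2, H3K4me1 was higher in GMP at 24 of 24 enhancers (median log2 0.66, all enhancers 0.21). It was at least 2-fold higher at 5, namely enhancers 16, 17, 19, 20 and 21, which were also the only ones among the 41, beside 0.855% of all enhancers (0.00227% lower). With a pseudocount 4 times larger none of the 41 passed, and 3 did after the median ratio of all enhancers was subtracted. Before these changes any such enhancer was found at 255 genes. Of these, 3 others had at least as many as Itgb2, and 2 had more. From GMP to granulocytes 14 of 24 were at least 2-fold higher (9.69% of all enhancers), with a median log2 ratio of 1.09 against 0.32. After that subtraction 3 of the 41 were higher and 3 lower, against 14 and 1 before it. None of the 17 enhancers of the other genes was at least 2-fold higher, with a median of -0.07. All of those lower were among the 17: Itga2b enhancer 4 before the subtraction, and Itga2b enhancers 3 and 4 and Itgax enhancer 2 after it.

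The deposited classes describe the same locus in the authors' terms. By stage, 12 of the 24 Itgb2 enhancers are classed to granulocytes alone and 4 to GMP and granulocytes. With 1 enhancer each of Itgax and Fut7, 14 of the 41 (34.1%) are classed to granulocytes alone, against 21.2% of all enhancers. The stage class of 7 Itgb2 enhancers leaves out granulocytes, but all 7 had at least 2-fold more H3K27ac there than in GMP (median log2 1.40). Of the 17 Itgb2 enhancers with granulocytes in their class, 9 did (median log2 1.00), beside 14.1% of all enhancers. By bound factor, 5 Itgb2 enhancers are classed to PU.1 and CEBPA, 1 to PU.1, 3 to CEBPA and 15 to neither. Of all enhancers 9.21% are classed to both, 19.1% to PU.1, 12.3% to CEBPA and 59.5% to neither. The 5 with both factors had 6.52 to 8.97 of H3K27ac in granulocytes, and the 15 with neither had 1.07 to 5.03. The enhancer classed to PU.1 had 3.56, and the 3 classed to CEBPA had 2.93, 4.09 and 5.12. Granulocyte H3K27ac of the same classes over all enhancers was not compared. The criteria of these classes are not given in the sources used here, and a class naming CEBPA need not mean a high value in the CEBPA column: enhancer 7 is classed to both with a CEBPA signal of 0.319, under the all-enhancer median of 0.534.

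Itgb2 expression was also highest in granulocytes. Its value was 176 in LSK, 147 in preGM and 238 in GMP, and 10856 in granulocytes, which is 45.4-fold the GMP value (log2 5.50, on the scale of value + 1). Granulocytes were sorted for Mac1, which contains the Itgb2 product, so this level is not independent of the sort. In bulk populations, more cells with the transcript and more transcript per cell cannot be told apart. The expression columns carry a further limit. The preGM value of the stage series and the wild type preGM value of the KO pair, although alike in name, differ by at least 2-fold at 48.7% of genes, so no value of the stage series was set against one of the KO pair, and no level was compared between genes.

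The nearest enhancer on the left, 0.912 kb away, is assigned to 1810008A18Rik and showed a like difference in H3K27ac, 1.06 in GMP and 4.42 in granulocytes. The assignment of enhancers to genes is the authors', and no enhancer is shown here to act on its assigned gene.

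**Figure D2:**
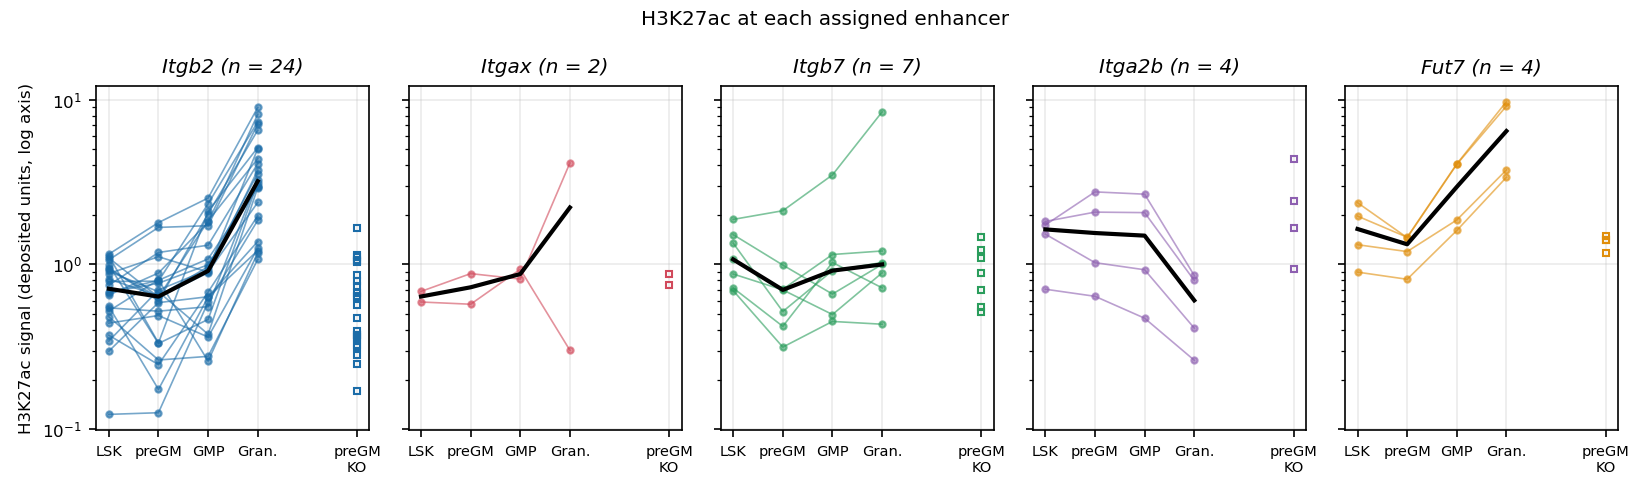
H3K27ac signal (deposited units, log axis) at each enhancer of the 5 genes, with wild type stages joined by a line, the median of the gene in black and KO preGM as open squares. Itgb2 and Fut7 enhancers all end above their GMP values in granulocytes, and the 4 Itga2b enhancers all end below.

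The selectin-ligand enzyme Fut7 had its highest H3K27ac in granulocytes too, from 2 neighbouring enhancers on chromosome 2. Enhancer 2 (25278355 to 25278481) had H3K27ac of 1.96 in LSK, 1.46 in preGM, 4.07 in GMP and 9.73 in granulocytes. Enhancer 3, which begins 201 bases further on (25278682 to 25278827), had 2.37, 1.45, 4.05 and 9.14. Both were lowest in preGM and were at least 2-fold higher at both later steps, with log2 ratios of 1.14 and 1.14 into GMP and of 1.13 and 1.05 into granulocytes. Among the 41, 5 were at least 2-fold higher in GMP than in preGM, these 2 and Itgb2 enhancers 3, 20 and 21, beside 9.21% of all enhancers, and none was lower (0.411%). With a pseudocount 4 times larger none passed. After subtracting the median ratio of all enhancers 1 did, Itgb2 enhancer 21, and the Fut7 pair stood at 0.85 and 0.85 into GMP and at 0.99 and 0.91 into granulocytes, short of 2-fold.

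The flanking Fut7 enhancers 1 and 4 had lower signals with the same order of the last 3 stages. Enhancer 1 had 0.813 in preGM, 1.61 in GMP and 3.38 in granulocytes, and enhancer 4 had 1.2, 1.86 and 3.75. Although enhancers 2 and 3 had nearly equal values in each column, the deposited stage class names LSK, preGM and GMP for enhancer 2 and granulocytes alone for enhancer 3.

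Fut7 expression did not follow its H3K27ac. The value was 136 in LSK, 166 in preGM, 86.6 in GMP and 87.9 in granulocytes, with log2 differences of -0.93 from preGM to GMP and 0.021 from GMP to granulocytes. The H3K27ac of its strongest enhancers was thus more than doubled where the expression value was lower, and again where it differed little. Neither step reached 2-fold after the median ratio of all enhancers was subtracted. By each gene's enhancer with the highest mean H3K27ac, 17.7% of all genes were at least 2-fold higher at the first of these steps and 11.6% at the second. The nearest enhancer of another gene, that of Abca2 4.45 kb to the right, had H3K27ac of 3.01 in GMP and 1.51 in granulocytes.

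Fut7 and Itgb7 held 3 of the strongest CEBPA signals in the table. Enhancer 7 of Itgb7 had a CEBPA signal of 19.5 in wild type preGM and ranked 3 of 44002, and Fut7 enhancers 3 and 2, at 16.7 and 16.5, ranked 6 and 7. The median of all enhancers was 0.534 and the highest 22.6. The 2 Fut7 enhancers lie 201 bases apart and are not independent, and whether they are 1 site was not tested. All 3 are classed to PU.1 and CEBPA, and they had PU.1 as well: in preGM the PU.1 signal was 27.03 at Itgb7 enhancer 7, 12.6 at Fut7 enhancer 3 and 12.3 at Fut7 enhancer 2. Itgb2 enhancer 22 had the next highest CEBPA signal of the 41, 5.09, ranking 259.

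In preGM without CEBPA, PU.1 signal was lowest relative to wild type at these 3 enhancers. At Fut7 enhancer 3 it was 12.6 in wild type and 5.40 in KO preGM (log2 -1.14). At Fut7 enhancer 2 it was 12.3 and 5.74 (log2 -1.03), and at Itgb7 enhancer 7 it was 27.03 and 13.4 (log2 -0.98). The KO values at the Fut7 pair lay below those of LSK, which were 7.26 and 7.33.

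Those 2 Fut7 enhancers were the only ones of the 41 with at least 2-fold less PU.1 in the KO, beside 6.15% of all enhancers, and none was higher (0.0955%). Neither passed after the median ratio of all enhancers (-0.27) was subtracted. The next in order were Itgb7 enhancer 7, just short of 2-fold, and Fut7 enhancer 4, with 2.99 and 1.31 (log2 -0.91). Enhancer 4 of Fut7 had little CEBPA signal, 0.657. Less PU.1 in the KO was common in the table, at 31568 of 44002 enhancers, and at 3977 of the 4054 classed to both factors. At least 2-fold less was found at 27.7% of those classed to both factors and at 14.3% of those classed to PU.1 alone. The part of CEBPA binding in the PU.1 difference was not tested.

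**Figure D3:**
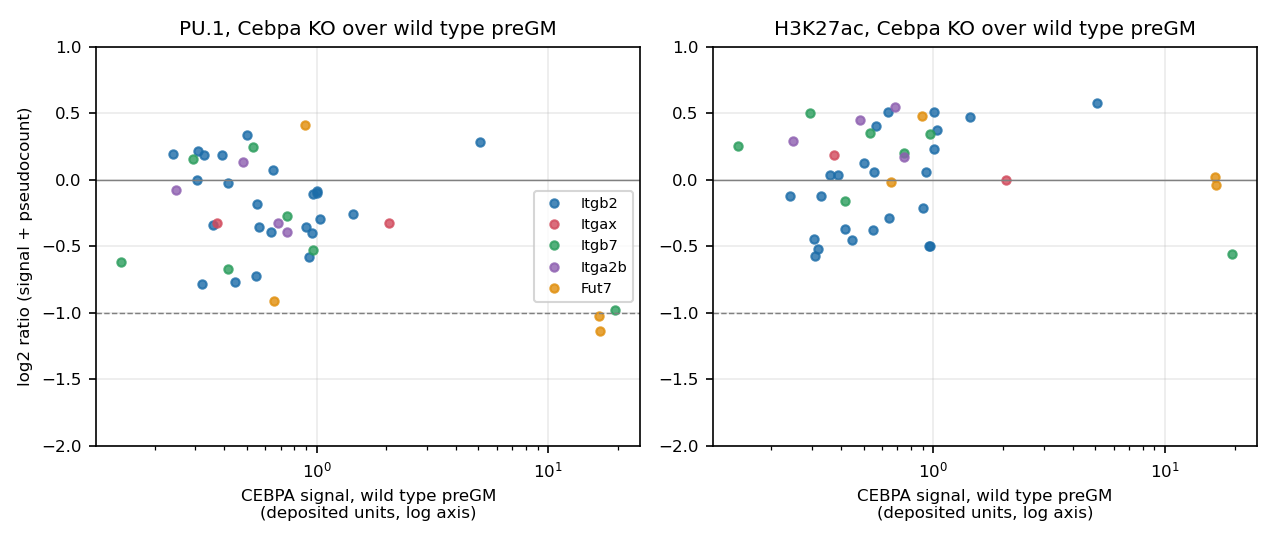
Log2 ratio of Cebpa KO to wild type preGM for PU.1 (left) and H3K27ac (right) against the CEBPA signal in wild type preGM (deposited units, log axis), 1 point per enhancer. The 3 points at the right have the lowest PU.1 ratios of the 41, from -1.14 to -0.98, while H3K27ac at the Fut7 pair lies near 0.

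The lower PU.1 signal at the Fut7 pair went without a like difference in the histone marks of the same cells. H3K27ac at Fut7 enhancer 2 was 1.46 in wild type and 1.49 in KO preGM, and at enhancer 3 it was 1.45 and 1.40. H3K4me1 was 5.08 and 6.90 at enhancer 2 and 5.17 and 6.84 at enhancer 3. Fut7 expression was 115 and 107. At Itgb7 enhancer 7, H3K27ac was lower in the KO, at 1.22 against 2.12 (log2 -0.55), with Itgb7 expression of 90.6 in wild type and 94.3 in KO preGM. None of the 41 enhancers was 2-fold different in H3K27ac between the genotypes, beside 0.441% higher and 0.47% lower of all enhancers, and none in H3K4me1 (0% and 0.00909%).

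The lymphocyte homing chain Itgb7 had enhancers that behaved differently from each other. They span 18.2 kb of chromosome 15 (102055908 to 102074093). Enhancers 1 to 6 had H3K27ac of 0.434 to 1.21 in granulocytes, against 0.451 to 1.15 in GMP, so the ranges overlapped nearly throughout. Enhancer 7 (102074033 to 102074093), 8403 bases beyond enhancer 6, had 1.88 in LSK, 2.12 in preGM, 3.49 in GMP and 8.43 in granulocytes (log2 1.12 at the last step). It is also the enhancer nearest to one of another gene, Rarg, 1.01 kb away, where H3K27ac was 0.460 in GMP and 1.51 in granulocytes.

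PU.1 at Itgb7 was strongest at the other end of the locus. At enhancer 1 (102055908 to 102056306) the PU.1 signal was 24.4 in LSK, 30.3 in preGM and 13.9 in GMP, and 18.9 in KO preGM. The difference from preGM to GMP, log2 -1.09, was 1 of 2 among the 41 past 2-fold, beside 0.775% of all enhancers. Its H3K27ac was low at every stage, 0.875, 0.701, 0.497 and 0.889 from LSK to granulocytes, and its CEBPA signal was 0.414. The enhancer with the most PU.1 of the 41 in preGM thus had less H3K27ac than the median of all enhancers at every stage, which was 0.936, 0.908, 1.2 and 1.48.

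Itgb7 expression was 175 in LSK, 125 in preGM, 43.7 in GMP and 385 in granulocytes. It was lower in GMP than in preGM (log2 -1.5) and 8.63-fold higher in granulocytes than in GMP (log2 3.11). Of 7 listed T and NK cell markers 4 were measured. Gata3 and Cd2 were at least 2-fold higher in granulocytes than in GMP and Nkg7 was lower, beside 14.9% and 24% of all genes. Neither of the 2 measured B cell markers differed 2-fold. The part of other cells in the Itgb7 values was not tested. At the strongest Itgb7 enhancer, number 7, H3K27ac in GMP was above that in preGM (log2 0.57), while expression was lower. By each gene's enhancer with the highest mean H3K27ac, the median log2 ratio of all genes at that step was 0.55. The H3K27ac difference was thus near that of the table as a whole. At the last step both H3K27ac and expression were higher.

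The platelet integrin chain Itga2b was the one gene whose enhancers all had less acetylation in granulocytes than in GMP. Its 4 enhancers lie within 3.08 kb of chromosome 11 (102328512 to 102331593), all classed to preGM and GMP. Enhancer 4 (102331429 to 102331593) had H3K27ac of 1.74 in LSK, 2.76 in preGM, 2.67 in GMP and 0.857 in granulocytes (log2 -1.11). It was the only one of the 41 to be at least 2-fold lower at that step, beside 6.05% of all enhancers. With a pseudocount 4 times larger none passed, and after subtracting the median ratio of all enhancers 2 did. Enhancers 1 to 3 were lower as well, with log2 ratios of -0.88, -0.55 and -0.28.

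PU.1 at Itga2b enhancer 4 was lower one step before. Its signal was 13.2 in LSK, 21.2 in preGM and 9.18 in GMP, a log2 ratio of -1.16 that was the lowest of the 41. H3K27ac and H3K4me1 at this enhancer differed little between preGM and GMP, with H3K4me1 at 4.39 and 4.50. In granulocytes H3K4me1 was 0.986 (log2 -1.12), the only one of the 41 to be at least 2-fold lower, beside 2.81% of all enhancers. PU.1 was not among the columns of granulocytes used here.

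In KO preGM all 4 Itga2b enhancers had more H3K27ac than in wild type, by log2 0.17 to 0.55. Enhancer 4 had 4.36 in KO and 2.76 in wild type preGM, while its PU.1 signal was 16.8 and 21.2. H3K4me1 was higher at all 4 too, by 0.19 to 0.31, as at all 17 enhancers outside Itgb2. Of all 44002 enhancers, 24133 had more H3K27ac in the KO and 31681 had more H3K4me1. The median over all enhancers was 0.046 for H3K27ac and 0.10 for H3K4me1, and no Itga2b enhancer reached 2-fold in either.

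Itga2b expression was 52.8 in LSK, 144 in preGM, 106 in GMP and 130 in granulocytes, and 192 in wild type and 218 in KO preGM. The difference from LSK to preGM, 2.70-fold (log2 1.43), was the only one past 2-fold. Its granulocyte value was not below that of GMP, although H3K27ac was lower at all 4 enhancers. Of 8 listed megakaryocyte and platelet markers 5 were measured, and they summed to 336, 500, 143 and 264 from LSK to granulocytes and to 560 and 654 in wild type and KO preGM. Pf4, a platelet chemokine, was 47.8 in GMP and 90.8 in granulocytes, Gp9, a platelet glycoprotein, 45.4 and 103. The part of other cells in the Itga2b values was not tested.

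The CD11c chain Itgax had 2 enhancers 24293 bases apart on chromosome 7 that went opposite ways. Enhancer 1 (135277163 to 135277717) had H3K27ac of 0.686 in LSK, 0.880 in preGM, 0.815 in GMP and 4.13 in granulocytes (log2 1.67). Enhancer 2 (135302010 to 135302190) had 0.592, 0.573, 0.934 and 0.301 (log2 -0.71). H3K4me1 differed in the same directions, with 3.19 in GMP and 5.43 in granulocytes at enhancer 1 and 2.69 and 0.767 at enhancer 2.

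PU.1 at Itgax enhancer 1 was above the median of all enhancers in LSK already, which was 0.994. Its PU.1 signal was 3.77 in LSK, 9.07 in preGM and 9.35 in GMP, and 7.12 in KO preGM. The first step, log2 1.14, was the highest of the 41. Only Fut7 enhancer 4 (1.04 to 2.99, log2 1.13) and Itgb2 enhancer 7 (6.15 to 13.2, log2 1.04) were also at least 2-fold higher there, 3 of 41 beside 6.56% of all enhancers, and none was lower (0.0364%). With a pseudocount 4 times larger, or after subtracting the median ratio of all enhancers (0.30), none passed. None of the 41 was at least 2-fold different in H3K27ac or H3K4me1 at that step, where 0.72% and 0.00227% of all enhancers were higher and 0.364% and 0.00682% lower.

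Itgax expression differed little, with 85.1 in LSK, 52.3 in preGM, 50.4 in GMP and 70.8 in granulocytes, and with 58.1 and 64.0 in wild type and KO preGM. Its log2 difference from GMP to granulocytes was 0.48, while H3K27ac at enhancer 1 had 1.67. Dendritic cell markers, 5 of 6 measured, summed to 399 in GMP and 590 in granulocytes. Of these, Ccr7, a chemokine receptor of lymph node homing, was 10.9 and 69.7, H2-Aa, an MHC class II chain, was 168 and 397, and Flt3, a growth factor receptor, was 146 and 58.8. Their part in the Itgax values was not tested.

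**Figure D4:**
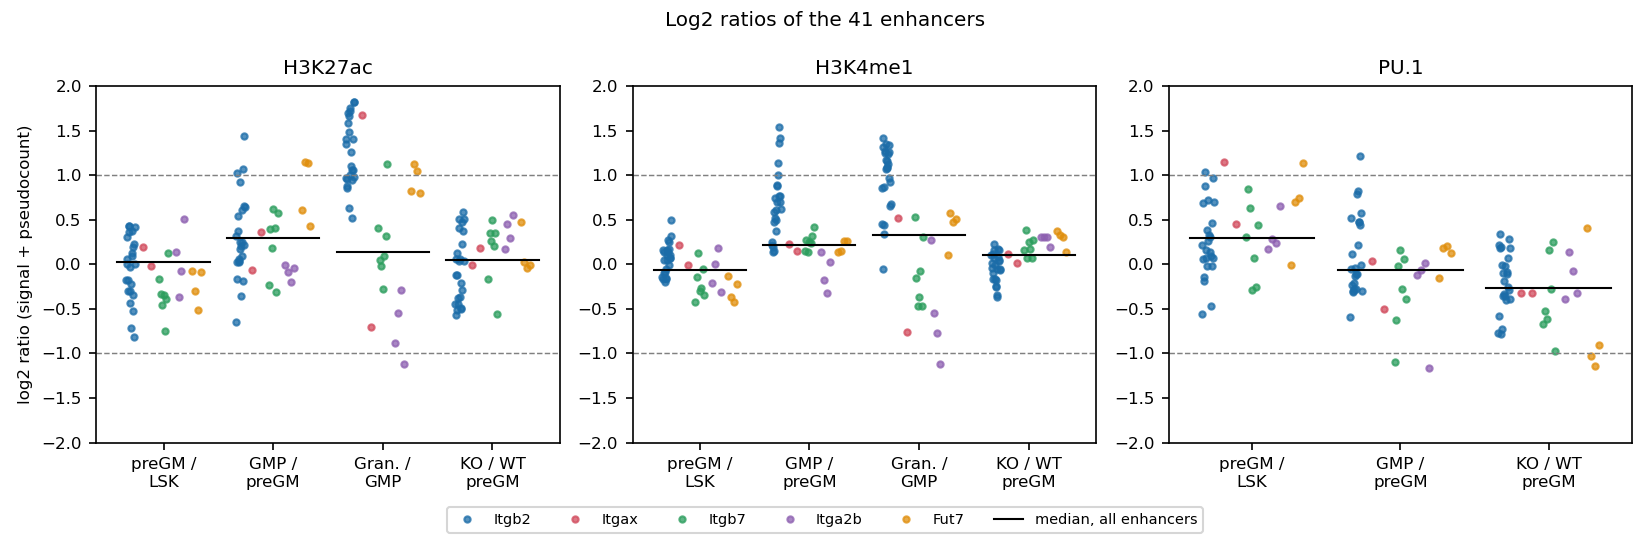
Log2 ratios (signal + pseudocount) of the 41 enhancers in each comparison for H3K27ac, H3K4me1 and PU.1, 1 point per enhancer, coloured by gene, with the median of all enhancers as a black line and the 2-fold limits dashed. Itgb2 stands wholly above 0 from GMP to granulocytes in H3K27ac and Itga2b wholly below.

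Set side by side, 20 of the 41 enhancers had at least 2-fold more H3K27ac in granulocytes than in GMP, beside 14.1% of all enhancers. Of the 20, 16 were Itgb2, 2 Fut7, 1 Itgax and 1 Itgb7. The count was 4 with a pseudocount 4 times larger and 13 after subtracting the median ratio of all enhancers. Without Itgb2 it was 4 of 17 (23.5%), with a median log2 ratio of 0.095 against 0.14 for all enhancers. By expression, 1 of the 5 genes was at least 2-fold higher in preGM than in LSK (Itga2b, beside 3.26% of genes) and 1 was lower in GMP than in preGM (Itgb7, 5.42%), with none higher (4.33%). Itgb2 and Itgb7 were higher in granulocytes than in GMP (14.9% of genes). None differed 2-fold between KO and wild type preGM (0.466% higher and 0.644% lower), where the log2 differences of the 5 genes lay between -0.099 and 0.18.

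**Figure D5:**
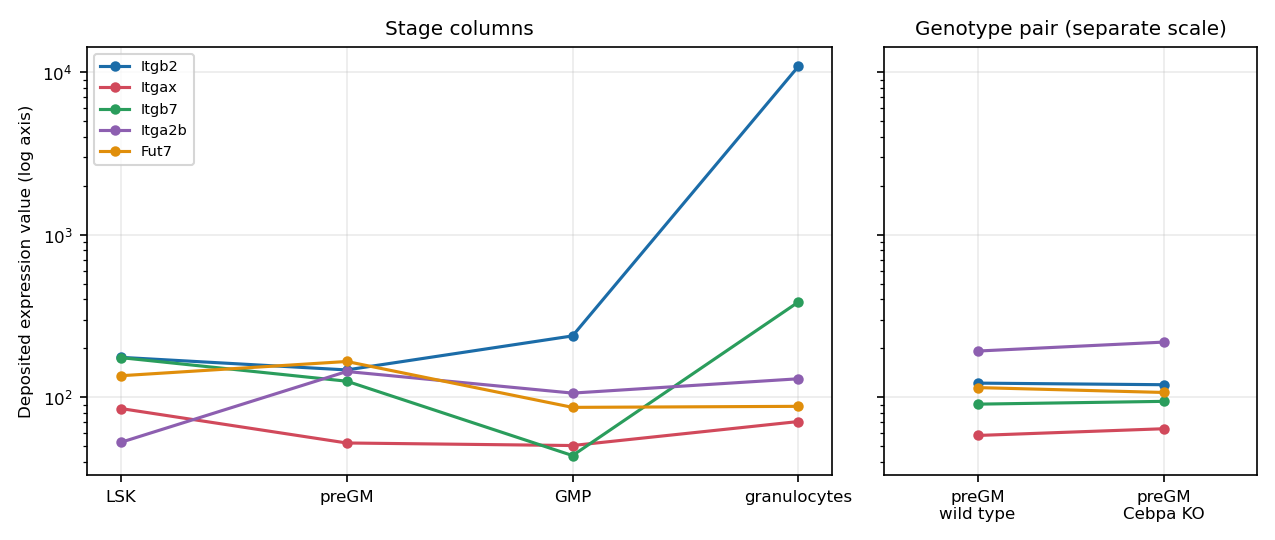
Deposited expression values (log axis) of the 5 genes over the wild type stages (left) and in the pair of wild type and Cebpa KO preGM (right), 1 value per gene and group. Itgb2 reaches 10856 in granulocytes, Itgb7 has its lowest value in GMP, and the lines of the KO pair are nearly level.

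Other adhesion genes were read from lists that do not hold these 5. Of 55 listed genes 41 were measured, and 12 were at least 2-fold higher and 8 lower by expression in granulocytes than in GMP, beside 14.9% and 24% of all genes. The median log2 difference was 0.44 against -0.17 for all genes. Among beta chains, Itgb2l, a close relative of Itgb2, went from 43.7 in GMP to 3136 in granulocytes and Itgb3 from 182 to 1354, while Itgb1 was lower, from 153 to 75.5. Among the 8 measured alpha chains, 2 partners of Itgb2 were higher: Itgam from 11.5 to 72.0 and Itgal from 464 to 1278. Itgam encodes the alpha chain of Mac1, for which granulocytes were sorted, and is also one of the granulocyte markers above. Itga6 and Itgav, partners of other beta chains, were lower.

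The machinery that activates integrins had 4 of 10 genes at least 2-fold higher in granulocytes than in GMP and 1 lower. Of all genes, 14.9% were higher and 24% lower by expression. Fyb, an adaptor, went from 155 to 2096, Fermt3, which encodes kindlin-3, from 255 to 1483, and Tln1, which encodes talin, from 354 to 1640. Rasgrp2, the exchange factor for Rap1, was lower, from 489 to 192. Of 13 measured genes of selectins, their ligands and the enzymes that build them, 3 were higher and 4 lower, beside the same shares. Selplg, the scaffold PSGL-1 on which Fut7 acts, went from 781 to 4878, Tpst2, which sulfates tyrosines, from 72.0 to 348, and Fut11, another fucosyltransferase, from 455 to 25.7. Of 6 measured counter-receptors, Icam2 alone was 2-fold different, from 179 to 373.

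By the enhancer with the most H3K27ac, 8 of these 41 genes were at least 2-fold higher in granulocytes than in GMP and 3 lower, beside 11.6% and 12.4% of all genes. The largest was Itgb2l, with 0.657 in GMP and 6.62 in granulocytes, and that of Itgal went from 1.21 to 7.05. St3gal6, a sialyltransferase of selectin ligands, went from 0.499 to 5.33, whereas its expression was 60.8 and 112. From preGM to GMP by expression, 1 of the 41 genes was higher and 2 were lower, beside 4.33% and 5.42% of all genes. None was 2-fold different between KO and wild type preGM, where 0.466% of all genes were higher and 0.644% lower. By the same enhancers, 6 of the 41 genes had at least 2-fold more H3K27ac in GMP than in preGM, beside 17.7% of all genes. In the KO, Tpst2 alone was higher and none was lower, beside 0.505% and 0.396%.

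Genes most like each of the 5 by expression were sought among those with at least the all-gene median of mean log2 value. Itgax, Itgb7 and Fut7 lie below that median themselves. Likeness was measured by the root mean square difference of centred log2 values over the 6 columns, with the smallest taken. This measure alone joins both series, so it also carries the unlike scales of the preGM columns. For Itgb2 these were Mxd1 (0.35), Cyba (0.49) and Plbd1 (0.52), each at its highest in granulocytes. For Itgb7 they were Irf9 (0.13), Arap1 (0.25) and Zyx (0.31), each lowest in GMP. For Itga2b they were Zfp719 (0.16), Uqcrq (0.20) and Heatr5b (0.22), for Fut7 Emid1 (0.094), Slc25a1 (0.12) and Eef2 (0.13), and for Itgax Cog8 (0.12) and Ccnl1 (0.14). A nearly level profile such as that of Itgax can be matched closely by genes of many kinds.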

How the data were processed

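The labels give 77 libraries of mouse bone marrow cells (ChIP-seq 53, RNA-seq 24). The authors deposited a table of 44002 enhancers (build mm9) with 1 linear signal value per enhancer and group and 1 expression value per gene and group. How libraries were pooled and scaled, and how and in what unit the expression columns were made, is not stated by the labels or the header. No gene is at 0 in them, and the values are not whole numbers. The submitters' processing notes name Bowtie2, MACS2, bedtools, STAR, featureCounts and DESeq2, with no versions. Columns were matched to groups by assay, stage and genotype in their names: 15 of ChIP (30 libraries, 2 per group) and 6 of expression (names matching 15 libraries, 3 per group). Another 11 value columns were not used.

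The pseudocount of log2 ratios was the rounded 25th percentile of each assay (0.65, 2.44 and 0.635 for H3K27ac, H3K4me1 and PU.1, to 0.7, 2 and 0.6), with 1 for expression, and values at least 2-fold apart were counted. With 1 pooled value per group, no test, interval or replicate check could be made, and precision is unknown. The code was tested on simulated data. Alternatives were other pseudocounts, a filter on low signal and subtraction of the all-feature median. The genes and lists were chosen with earlier results of these data known. Full values are given for each gene's enhancers with the highest mean H3K27ac, mean PU.1 and CEBPA and for those among the 3 highest or lowest ratios of a comparison, and a few others were chosen after their values were seen. Other lists were integrin alpha chains, beta chains and activation, selectins with their ligands and glycosylation, and counter-receptors, at most 4 named per list. Marker lists were of granulocytes, megakaryocytes, dendritic cells, T and NK cells and B cells. Python 3.11.15 with pandas 2.3.3 and NumPy 2.4.6 was used. RefSeq matched all 5 gene symbols and 9226 of the 10096 in the table. Some genes that these rules would name are left out of the text.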

Additional observations from a re-analysis of the deposited data

How the results depend on the processing

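No paired analysis was possible because the table does not separate the libraries, and for the same reason no library could be left out in turn. All counts here are of the 41 enhancers. The filter on low signal and every alternative for expression left the counts within 1.5 times, and no result reversed. With a pseudocount 4 times smaller, H3K27ac had 4 lower in preGM than in LSK (0 before), 10 higher (5) and 1 lower (0) in GMP than in preGM, 3 lower in granulocytes (1), and 1 higher and 1 lower in the KO (0 and 0). H3K4me1 had 10 higher in GMP (5) and 3 lower in granulocytes (1). PU.1 had 7 higher (3) and 1 lower (0) in preGM, 4 higher in GMP (1) and 5 lower in the KO (2). With a pseudocount 4 times larger, H3K27ac had 0 higher in GMP and 4 higher and 0 lower in granulocytes (20 and 1). H3K4me1 had 0 higher in GMP (5), and 0 higher and 0 lower in granulocytes (14 and 1). PU.1 had 0 higher in preGM (3), 0 higher in GMP (1) and 0 lower in the KO (2). After subtracting the median ratio of all enhancers, H3K27ac had 1 higher in GMP (5) and 13 higher and 2 lower in granulocytes. H3K4me1 had 3 higher in GMP, and 3 higher and 3 lower in granulocytes. PU.1 had 0 higher in preGM and 0 lower in the KO. A larger pseudocount by construction draws every ratio towards 0, and a smaller one lets ratios of low signals grow. What depth limits cannot be said, since depth per library is unknown.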
